A study of Mus musculus with 2 samples.

Results

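Dlk1, Hmga2, Cdkn2a, Lgals7, Mid1 and Kirrel3, genes that lead the cancer-like cells of mouse ovarian tumors, were examined here. They are 6 of the 32285 genes in the count tables and were taken by symbol from a set chosen on these same data, because their transcripts were high in the cancer-like cells. Their level in those cells is therefore a description and carries no test. Single-cell RNA sequencing had been done on tumors at peritoneal abrasion sites of female C57BL/6 mice aged 6 to 8 weeks. The mice had been injected intraperitoneally with syngeneic SO ovarian cancer cells, which per the labels lack p53 and carry myc and Hras. One library came from the pooled tumors of 7 mice given control IgG and the other from those of 8 mice given an Activin A neutralizing antibody, both by daily injections for 10 days. Every mouse thus carried the same cancer line and the abrasion, and the groups differed in the antibody given. The paper gives the same mouse numbers for one antibody experiment, but ties its sequencing to another with other numbers, and it gives other days of treatment than the labels. Which of these the libraries came from was not settled. Each group was 1 library, so an effect of the antibody and a difference between library preparations cannot be told apart, and no test between groups was made.

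Dlk1 encodes a membrane protein of the delta-like family that is imprinted and read from the paternal copy, is abundant in fetal tissues and progenitor cells, and is shed as a soluble factor. Hmga2 encodes a chromatin protein of fetal tissues whose transcript is a target of let-7 microRNAs and returns in many tumors. Cdkn2a encodes p16Ink4a, which inhibits Cdk4 and Cdk6, and p19Arf, which stabilizes p53, and its transcripts often accumulate in cells in which the Rb or p53 pathway is broken. Lgals7 encodes galectin-7, a lectin of stratified and other epithelia. Mid1 encodes a ubiquitin ligase of the microtubule network that acts on the phosphatase PP2A, and Kirrel3 encodes an immunoglobulin-type adhesion protein related to nephrin.

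On the GRCm38 (mm10) build, Dlk1 lies at chr12:109452823-109463336 on the plus strand and Hmga2 at chr10:120361275-120476469 on the minus strand. Cdkn2a lies at chr4:89274471-89294653 on the minus strand and Lgals7 at chr7:28863853-28866284 on the plus strand. Mid1 lies at chrX:169685199-170005736 and Kirrel3 at chr9:34485894-35036716, both on the plus strand. All 6 are annotated as protein coding. Annotated antisense genes overlap Hmga2, Lgals7, Mid1 and Kirrel3, and the one with most UMIs in Krt18-gated cells, 1700006J14Rik within Hmga2, had 153 over both libraries against 4643 and 6156 for Hmga2.

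Cdkn2a is the member for which the starts of transcription matter most to what was measured, because its products begin at separate first exons and share the later exons that a 3′ library reads. A Cdkn2a count therefore sums p16Ink4a and p19Arf transcripts. The 2 start windows are shown for that reason, each 250 bases before to 50 bases after the start on the GRCm38.p6 minus strand (RefSeq), with matches to GGGCGG or its reverse complement CCGCCC in capitals.
Cdkn2a upstream start, p19Arf, chr4:89294570-89294869: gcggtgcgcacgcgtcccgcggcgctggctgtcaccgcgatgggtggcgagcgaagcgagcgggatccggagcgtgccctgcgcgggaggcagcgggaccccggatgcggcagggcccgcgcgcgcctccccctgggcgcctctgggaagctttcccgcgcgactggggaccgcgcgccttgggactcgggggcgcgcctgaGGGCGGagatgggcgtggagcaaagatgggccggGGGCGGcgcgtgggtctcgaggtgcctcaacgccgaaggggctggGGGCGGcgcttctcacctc
Cdkn2a downstream start, p16Ink4a, chr4:89282143-89282442: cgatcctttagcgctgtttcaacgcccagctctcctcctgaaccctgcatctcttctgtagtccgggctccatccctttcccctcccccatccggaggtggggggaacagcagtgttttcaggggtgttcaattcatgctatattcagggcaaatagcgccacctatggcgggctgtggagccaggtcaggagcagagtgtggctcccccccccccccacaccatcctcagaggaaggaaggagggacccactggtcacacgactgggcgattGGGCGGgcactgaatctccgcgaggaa
The upstream window held 3 such matches and 45 CG pairs, and the downstream window held 1 match and 12 CG pairs. The motif was present in 4 of the 8 windows found for 5 members (both of Cdkn2a and those of Lgals7 and Hmga2) and in 35.7% of all 32851 windows of that length, whose median was 7 CG pairs. Kirrel3 had no window in the table.

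Cells were assigned to classes by lineage marker genes that include none of the 6. The planned cancer gate asked for UMIs of both Krt8 and Krt18, the keratin pair of simple epithelia, at 2 or more per 10000 UMIs with no other lineage gate passed. It held 23 of the 8770 control IgG cells and 27 of the 6386 antibody cells. Krt8 was the limit: among cells with at least 2 Krt18 UMIs, at 2 or more per 10000 UMIs, and no other lineage, 23 of 184 and 27 of 215 had any Krt8 UMI. Those 184 and 215 cells, called Krt18-gated below, were added after this was seen and include the cells of the planned gate. Their median depth was 59111 and 57037 UMIs per cell, against 4787 and 4159 in T and NK-like cells. The classes are named by their gate and not as cancer cells because only part of an ovarian epithelial profile was found. Wt1 was at 70.4 CPM (the UMIs of a gene scaled to a common total for each class) with control IgG and 67.4 with the antibody, and Epcam at 36.3 and 32.3. Krt19 was at 29.3 and 31.5 CPM and Pax8 at 8.76 and 2.62. Cdh1 was at 0.754 and 0.328 CPM, Msln at 0.471 and 0.0819, and Krt7 had 0 and 4 UMIs. Of the genes that mark the SO line, Myc was at 63.6 and 62.2 CPM and Hras at 137 and 123 in Krt18-gated cells. The paper reports that both were transfected into the cells, and whether these counts read the introduced copies was not tested. In T and NK-like cells Hras was at 58.9 and 50.8 CPM and Myc had 685 and 419 UMIs in 483 of 5547 and 313 of 4513 cells, while high Col1 fibroblast-like cells (defined below) had 55.4 and 61.0 CPM of Myc. Trp53 transcripts were counted at 130 and 134 CPM, above the 76.2 and 77.2 of T and NK-like cells. A 3′ count outside the deleted part says nothing about the deletion, so Trp53 does not check the genotype. The libraries shared 19 barcodes among kept cells, and 0 barcodes were Krt18-gated in both.

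Dlk1 was high in keratin-gated cells and low in leukocytes. It reached 2082 CPM (95% Poisson interval 2007 to 2160) with control IgG and 1753 (1692 to 1816) with the antibody in cells past the Krt8 and Krt18 gate, and 1510 and 1421 CPM in Krt18-gated cells. In T and NK-like cells it was at 30.0 and 34.0 CPM, in macrophage-like cells at 15.2 and 13.9, and in dendritic-like cells at 11.1 and 4.84. The Poisson, binomial and ratio intervals given here cover counting error only, and understate the error of genes whose UMIs come from few cells. Of all Dlk1 UMIs in kept cells, 91.2% of 26584 in the control IgG library and 90.5% of 28001 in the antibody library lay in cells without any lineage gate, and 60.3% and 62.0% in the Krt18-gated cells alone. Cells without a lineage gate whose Krt18 was seen once or lay under the cut, 99 and 110 cells, were also deep and had 1006 and 1169 CPM of Dlk1. In both libraries Dlk1 was lower in fibroblast-like than in keratin-gated cells and lower again in T and NK-like cells, with intervals that did not overlap, while those of the macrophage-like, B-like and mesothelial-like levels overlapped. That order is of the whole fibroblast-like class. Its 220 high Col1 cells with control IgG had 12.4 CPM of Dlk1, under the T and NK-like level, and its 242 with the antibody had 81.5, above it. The 28 neutrophil-like cells with the antibody stood apart at 212 CPM (99 UMIs), and the 13 with control IgG had 0 Dlk1 UMIs.

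Hmga2 was at 461 CPM (426 to 499) with control IgG and 574 (539 to 611) with the antibody in Krt8 and Krt18-gated cells, and at 437 and 504 CPM in Krt18-gated cells. It was at 5.94 and 6.47 CPM in T and NK-like cells and at 3.55 and 6.93 in macrophage-like cells. B-like cells had 0 Hmga2 UMIs in both libraries, where the floor of 3 UMIs stands at 3.21 and 5.79 CPM. Cdkn2a was at 1039 CPM (986 to 1095) and 965 (919 to 1012) in Krt8 and Krt18-gated cells and at 932 and 872 in Krt18-gated cells. Its level in T and NK-like cells was 21.4 and 18.3 CPM. As for Dlk1, 89.3% and 90.9% of the Cdkn2a UMIs in kept cells lay outside every lineage gate.

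Lgals7 was the member with a high level in mesothelial-like cells as well. It was at 1997 CPM (1923 to 2073) with control IgG and 1747 (1686 to 1810) with the antibody in Krt8 and Krt18-gated cells, and at 1869 and 1760 in Krt18-gated cells. In mesothelial-like cells, gated on Upk3b, Upk1b, Lrrn4, Gpm6a and Rspo1, it was at 826 and 958 CPM. These were 9 and 6 cells, 6 and 5 of which had Lgals7 UMIs, and 103 of 169 and 109 of 202 UMIs came from 1 cell each. Of the other members there, Mid1 had 12 UMIs (58.7 CPM) and 4 UMIs, Dlk1 was at 4.89 and 9.48, and Cdkn2a at 0 with control IgG, which allows up to 14.7 CPM, and at 4.74 with the antibody. Upk3b and Lrrn4, which define mesothelial cells, had 0 and 0 UMIs in Krt18-gated cells with control IgG and 1 and 0 with the antibody.

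Mid1 was at 784 CPM (738 to 832) with control IgG and 766 (725 to 808) with the antibody in Krt8 and Krt18-gated cells, and at 748 and 717 in Krt18-gated cells. T and NK-like cells had 16.4 and 23.1 CPM of Mid1. Kirrel3 was at 226 CPM (202 to 253) and 296 (271 to 323) in Krt8 and Krt18-gated cells and at 224 and 268 in Krt18-gated cells. In T and NK-like cells Kirrel3 was at 6.14 CPM with control IgG and 1.46 with the antibody, and 200 of the 221 UMIs with control IgG lay in 10 cells. Over the 6 members the level in T and NK-like cells was at most 59.9 CPM, that of Lgals7 with the antibody.

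**Figure D1:**
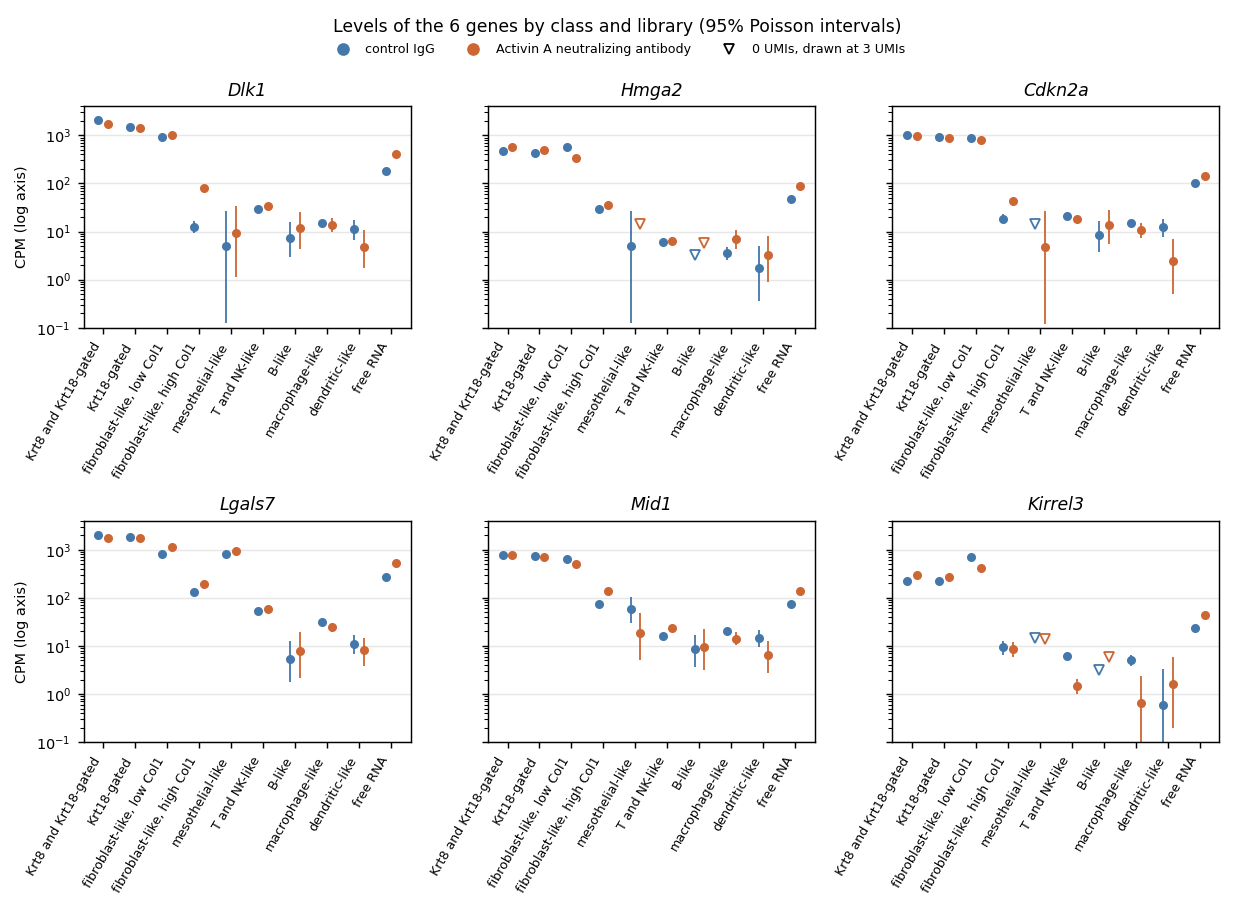
Level of each gene in CPM (log axis) by class for the control IgG (blue) and antibody (orange) libraries, with 95% Poisson intervals for counting error; open triangles mark 0 UMIs, drawn at the level of 3 UMIs. The keratin-gated classes and the fibroblast-like cells with low Col1 are high for all 6 genes, and mesothelial-like cells have Lgals7 at 826 and 958 CPM.

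Specificity was read as a level at least 10 times that of every other class of 50 or more cells. In Krt8 and Krt18-gated cells 1 of 6 members met this with control IgG (0.144% of 6946 genes did) and 0 of 6 with the antibody (0.0646% of 7741 genes), and since the members were chosen by this contrast nothing is read from the comparison with all genes. In every case the highest other class was fibroblast-like. The one gene past the limit was Dlk1, at 10.8-fold with control IgG and 5.85-fold with the antibody. Kirrel3 was the closest to its fibroblast-like level, at 1.58-fold and 2.79-fold. In the wider Krt18 gate 0 of 6 members passed in either library, where 0.0345% and 0.0258% of genes did.

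The fibroblast-like level of the members came largely from a few cells with little type I collagen. The fibroblast gate sums 7 matrix and mesenchymal genes, and 26 of 246 control IgG cells and 30 of 272 antibody cells passed it with under 20 UMIs of Col1a1 and Col1a2 per 10000. This split was made after the data were seen, and 28 and 37 cells lay near the limit. The low Col1 cells were deep, with a median of 39581 and 40711.5 UMIs against 16659 and 10275.5 in the high Col1 cells. In them Dlk1 was at 935 and 994 CPM, Cdkn2a at 878 and 815, and Kirrel3 at 693 and 417, above its level in the keratin gates. Kirrel3 in the low Col1 cells rested on few cells: 10 of them held 684 of 707 and 465 of 492 UMIs. These cells had Col1a1 at 77.4 and 147 CPM against 7082 and 7514 in high Col1 cells, and Col3a1 at 2355 and 2387 against 11197 and 10053. Krt18-gated cells had 117 and 88 UMIs of Col1a1, the latter 7.21 CPM, and Col3a1 at 276 and 301 CPM. Krt18 was at 343 and 347 CPM in the low Col1 cells, seen in 18 of 26 and 18 of 30 of them, and at 85.9 and 68.4 in high Col1 cells. Whether the low Col1 cells are cancer cells, fibroblasts or doublets was not tested.

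Against high Col1 fibroblast-like cells the count of members past 10-fold became 6 of 6 with control IgG (0.432% of genes) and 4 of 6 with the antibody (0.245%) in Krt8 and Krt18-gated cells. It was likewise 6 of 6 (0.276%) and 4 of 6 (0.146%) in Krt18-gated cells. Dlk1 was then 69.5-fold and 21.5-fold over the next class, Cdkn2a 48.6-fold and 22.8-fold, and Kirrel3 24.3-fold and 34.8-fold. Hmga2 was 15.8-fold and 16.1-fold over it. With the antibody, Kirrel3 and Cdkn2a thus had larger folds than Dlk1, but 1 of 27 cells held 228 of the 518 Kirrel3 UMIs. The members that missed the limit with the antibody were Lgals7, at 14.9-fold and 8.88-fold, and Mid1, at 10.5-fold and 5.61-fold, and both had their highest other level in high Col1 cells. By fold over the next class in Krt18-gated cells, Dlk1 ranked 2 of 11578 genes in the control IgG library and 7 of 11645 in the antibody library. Cdkn2a ranked 3 and 5, Kirrel3 6 and 3, Hmga2 14 and 12, Lgals7 17 and 23, and Mid1 32 and 52. The members were chosen on these data by their level in such cells, so these counts, folds and ranks only describe them. The high Col1 class they rest on was set after the data were seen. They also leave out the low Col1 cells and every class under 50 cells. Of the latter, mesothelial-like cells (9 and 6 cells) had Lgals7 at 826 and 958 CPM. The 28 neutrophil-like cells with the antibody had Dlk1 at 212 CPM and Hmga2 at 118. Mid1 made up 51 of the 467797 UMIs of those 28 cells and 9 of the 94108 UMIs of the 2 endothelial-like cells with the antibody. These levels lay within 10-fold of those in the keratin-gated cells of the same library.

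**Figure D2:**
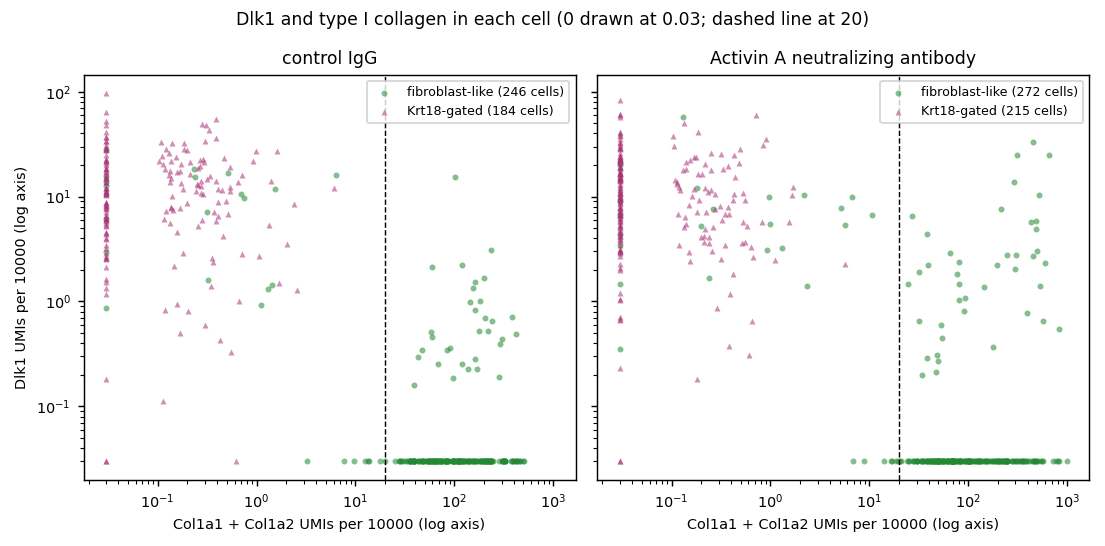
Dlk1 UMIs against Col1a1 plus Col1a2 UMIs, both per 10000 UMIs on log axes, for each fibroblast-like cell (green) and Krt18-gated cell (purple) of each library, with 0 drawn at 0.03. Fibroblast-like cells left of the dashed line at 20 (26 and 30 cells) reach the Dlk1 range of Krt18-gated cells, and most cells right of it have no Dlk1 UMI.

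Whether Dlk1 in fibroblast-like cells was at the level of free RNA differed between the libraries and between the parts of the gate. Free RNA, transcripts in the cell suspension that enter every droplet, was read from the barcodes under 100 UMIs, and Dlk1 was at 184 CPM there with control IgG (1155 UMIs) and 401 with the antibody (1851 UMIs). Its share in fibroblast-like cells was set by 13 leukocyte genes such as Ptprc, whose summed level in fibroblast-like cells was 6.75% and 1.72% of that in free RNA. Single genes of the 13 differed widely, from 3.57% (Cd3e) to 46.4% (S100a9) with control IgG and from 0.577% (S100a8) to 7.72% (Cd53) with the antibody. The Dlk1 level expected from that share was 12.4 and 6.90 CPM. Intervals of the ratio to the expected level take the share as fixed and leave out its own counting error. It rests on 1930 and 487 leukocyte UMIs in all fibroblast-like cells, and on 1819 and 360 in the high Col1 cells. Measured Dlk1 in all fibroblast-like cells was 193 CPM (1006 UMIs) and 300 CPM (1479 UMIs), a log2 ratio over the expected level of 3.96 (3.84 to 4.08) with control IgG and 5.44 (5.34 to 5.54) with the antibody. The gene of highest share alone gave an expected level of 85.4 and 31.0 CPM, still under the measured one. Low Col1 cells held 94.8% and 79.3% of those UMIs.

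In high Col1 fibroblast-like cells with control IgG, Dlk1 was at 12.4 CPM (52 UMIs in 32 of 220 cells) against an expected 14.6, a log2 ratio of -0.23 with an interval of -0.66 to 0.17. With the antibody it was at 81.5 CPM (306 UMIs in 42 of 242 cells) against an expected 6.70, a log2 ratio of 3.60 (3.42 to 3.78). T and NK-like cells, which should lack Dlk1, had 30.0 and 34.0 CPM, or 16.3% and 8.47% of free RNA. These percentages exceed the leukocyte shares of 7.91% and 1.67% that set the expected level, and 10 cells held 73.8% and 72.0% of those Dlk1 UMIs. Dlk1 in high Col1 cells was under the T and NK-like level with control IgG. With the antibody it was above that level, by less than the ratio to the expected level. By single leukocyte genes the expected level ran from 6.45 CPM (Cd3e) to 106 (S100a9) with control IgG, on both sides of the measured one, and from 1.91 (Lyz2) to 37.5 (Cd53) with the antibody, all under it. In that library 10 high Col1 cells held 72.2% of their Dlk1 UMIs. High Col1 cells with Pi16 or Car3, genes of adventitial and adipose-associated fibroblasts, had 110 CPM (121 UMIs) and cells with neither these nor Acta2 or Tagln had 73.7 CPM (185 UMIs). The 5 cells with Acta2 or Tagln, genes of contractile myofibroblasts, had 0 Dlk1 UMIs. With control IgG the Pi16 or Car3 subset had 8 Dlk1 UMIs (9.02 CPM), the subset with neither 33, and the 26 cells with Acta2 or Tagln 11 (11.7 CPM). After thinning every cell to 2000 UMIs, 2.29% of 218 high Col1 cells with control IgG (0.749% to 5.27%, exact Clopper-Pearson) and 6.67% of 240 with the antibody (3.86% to 10.6%) had a Dlk1 UMI. The share in T and NK-like cells, which should lack Dlk1, was 1.72% of 5422 and 2.26% of 4332 cells. The unthinned shares were 14.5% and 17.4% against 4.81% and 4.94%, at a median depth of 16659 and 10275.5 UMIs against 4787 and 4159.

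The members did not keep 1 ratio to free RNA in high Col1 fibroblast-like cells. With control IgG Dlk1 there stood at 6.75% of its level in free RNA, Kirrel3 at 39.5%, Lgals7 at 49.7%, Hmga2 at 60.9% and Mid1 at 99.2%. Cdkn2a lay between Dlk1 and Kirrel3. With the antibody Kirrel3 was lowest at 19.7%, followed by Dlk1 at 20.3%, Cdkn2a at 29.4%, Lgals7 at 36.6%, Hmga2 at 40.9% and Mid1 at 96.2%. In T and NK-like cells the range over the 6 genes was narrower with control IgG, from 12.4% for Hmga2 to 26.0% for Kirrel3, and ran from 3.36% for Kirrel3 to 16.3% for Mid1 with the antibody. Single cells weighed on these ends. With control IgG 1 of 5547 cells held 124 of 214 Hmga2 UMIs and 1 held 148 of 221 Kirrel3 UMIs. With the antibody 1 of 4513 held 154 of 571 Mid1 UMIs. Mid1 was also the most widely spread member among high Col1 cells, with a UMI in 123 of 220 cells and 118 of 242, and 34.2% and 48.7% of its UMIs in 10 cells. Thinned to 2000 UMIs, 20.6% (15.5% to 26.6%) and 20.4% (15.5% to 26.1%) of high Col1 cells had a Mid1 UMI, against 1.29% and 1.32% of T and NK-like cells. For Lgals7 24 of 218 and 29 of 240 thinned high Col1 cells had a UMI, against 3.25% and 3.74% of T and NK-like cells. High Col1 cells also held mesothelial transcripts, with Lrrn4 at 46.8 and 53.5 CPM and Upk3b at 32.0 and 39.4, and the part of these in the Lgals7 level was not tested.

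**Figure D3:**
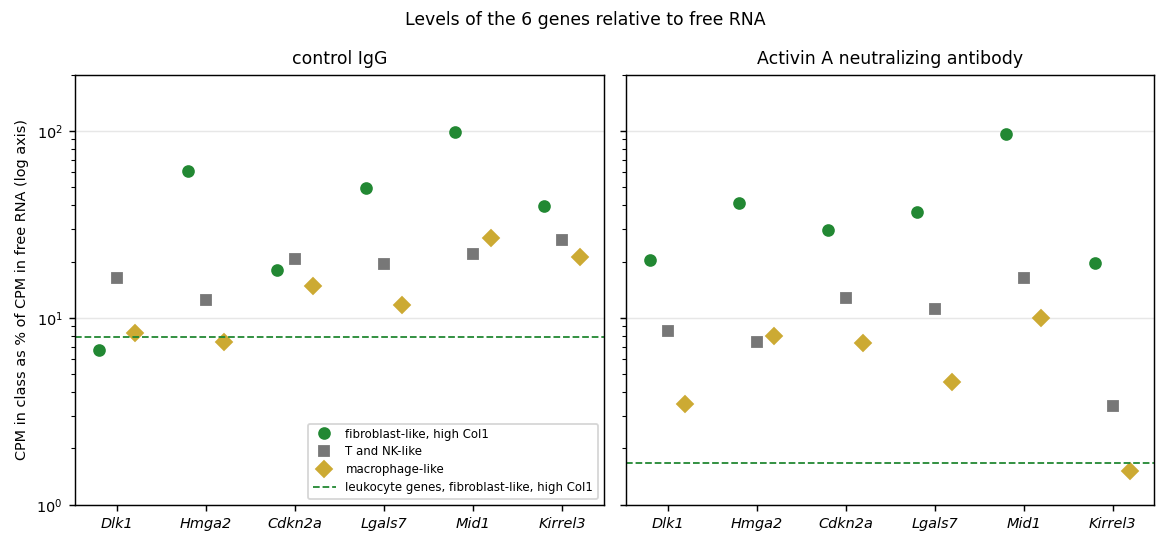
Level of each gene in a class as a percentage of its level in free RNA (log axis), for high Col1 fibroblast-like cells, T and NK-like cells and macrophage-like cells of each library; the dashed line is the same percentage for the 13 leukocyte genes in high Col1 fibroblast-like cells (7.91% and 1.67%). Mid1 sits near 100% in high Col1 cells of both libraries, while Dlk1 lies at 6.75% and 20.3%.

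In free RNA itself all 6 members were higher in the antibody library. Dlk1 was at 184 CPM with control IgG and 401 with the antibody, a log2 difference of 1.12 (1.02 to 1.23), Lgals7 at 270 and 538, a difference of 0.99 (0.90 to 1.08), and Cdkn2a at 103 and 144, a difference of 0.48 (0.32 to 0.64). The differences for Hmga2, Mid1 and Kirrel3 lay between 0.87 and 0.91. Krt18 in free RNA went the same way, at 90.0 and 213 CPM. Krt18-gated cells made up 2.10% of kept cells with control IgG and 3.37% with the antibody.

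In the keratin-gated cells each member differed by less than 2-fold between the libraries. Past the Krt8 and Krt18 gate 0 of 6 members differed by 2-fold, against 6.43% of 9188 genes (4.03% higher and 2.41% lower with the antibody). In Krt18-gated cells it was again 0 of 6, against 4.96% of 12881 genes (1.89% higher and 3.07% lower). With such shares over all genes, 0 of 6 is no trait of the members, and nothing is read from it. Kirrel3 and Hmga2 were the members that were higher with the antibody, with log2 differences in Krt18-gated cells of 0.26 (0.18 to 0.34) and 0.20 (0.15 to 0.26). Cdkn2a differed by -0.095 (-0.13 to -0.056), Dlk1 by -0.088 (-0.12 to -0.057), Lgals7 by -0.087 (-0.11 to -0.059) and Mid1 by -0.060 (-0.10 to -0.016). The median over the members was -0.073 and over all genes with UMIs in both libraries -0.057. Inhba, the gene of the Activin A subunit, is named here as the antibody's target. In Krt18-gated cells it was at 74.1 CPM with control IgG and 116 with the antibody, a log2 difference of 0.65 (0.52 to 0.77). Past the Krt8 and Krt18 gate, in 23 and 27 cells, it was at 21.1 and 104 CPM, a difference of 2.30 (1.73 to 2.92). It was also higher with the antibody in free RNA (1.48), macrophage-like cells (2.09) and all fibroblast-like cells (0.36, 0.12 to 0.61). Of the parts of the fibroblast-like class, Inhba was lower in high Col1 cells (-1.04) and higher in low Col1 cells (1.02). A gate on a UMI of both Dlk1 and Hmga2 with no other lineage, which picks 303 and 318 cells by 2 of the members, gave log2 differences of 0.024 for Dlk1 and 0.14 for Hmga2.

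**Figure D4:**
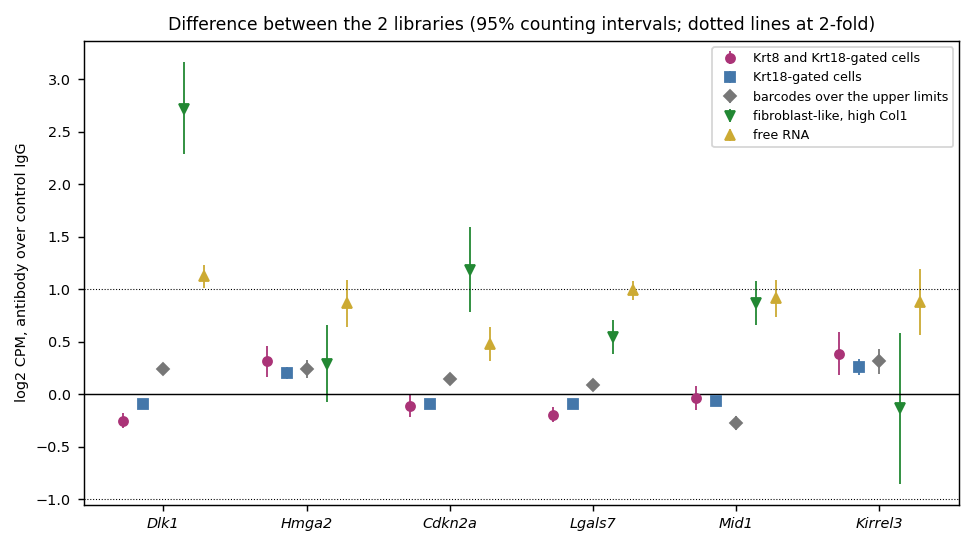
Log2 difference in CPM of the antibody library over the control IgG library for each gene, in 5 sets of barcodes, with 95% counting intervals; dotted lines mark a 2-fold difference. All values in keratin-gated cells lie within 2-fold, those in free RNA lie between 0.48 and 1.12, and Dlk1 in high Col1 fibroblast-like cells is at 2.71.

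Among Krt18-gated cells nearly every cell held most of the members. After thinning to 20000 UMIs, which left out 10 and 20 shallower cells, Dlk1 was seen in 97.7% of the 174 control IgG cells and 100% of the 195 antibody cells, Cdkn2a in 98.9% and 99.5%, and Lgals7 in 98.9% and 100%. Hmga2 was seen in 97.1% and 96.9% of the cells and Mid1 in 94.3% and 94.9%. Kirrel3 was the exception, seen in 55.7% (48.0% to 63.3%) and 64.6% (57.5% to 71.3%). All 6 members were seen together in 51.7% and 58.5% of cells, and no cell had fewer than 4 in this thinning. When the Krt8 and Krt18-gated cells were thinned on their own, 1 of 26 antibody cells had 3. Levels varied widely all the same: Dlk1 ran from 0 to 192 UMIs per cell with a median of 22.5 with control IgG, and from 1 to 171 with a median of 21 with the antibody. Kirrel3 had a median of 1 and 2 UMIs and a maximum of 54 and 83. Between pairs of members the Spearman correlation over these cells lay between -0.22 and 0.23 with control IgG and between -0.11 and 0.21 with the antibody, values too weak in sparse counts to count as a finding. Thinned to 2000 UMIs for comparison with other classes, Dlk1 was seen in 78.1% and 78.6% of Krt18-gated cells against 1.72% and 2.26% of T and NK-like cells.

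By summed UMIs, Kirrel3 was also the member that differed most between dividing and other cells. Krt18-gated cells were split by 5 genes of the dividing cell (Mki67, Top2a, Cdk1, Ccnb1 and Birc5) at 2 UMIs per 10000, which gave 92 and 92 cells with control IgG and 109 and 106 with the antibody. Dividing cells were deeper, with a median of 67605.5 UMIs against 50487.5 and 69737 against 52684. Kirrel3 was at 150 CPM in dividing and 318 in other cells with control IgG, and at 206 and 349 with the antibody, log2 differences of -1.08 (-1.20 to -0.96) and -0.76 (-0.86 to -0.66). Among Krt18-gated cells 10 cells held 912 of the 2376 Kirrel3 UMIs with control IgG, and 10 held 1230 of 3274 with the antibody. The intervals cover counting error only, and how far the Kirrel3 difference rests on where these cells fell was not tested. Dlk1 was at 1635 and 1351 CPM with control IgG and at 1450 and 1383 with the antibody, differences of 0.28 and 0.068. Cdkn2a was at 916 and 952 CPM with control IgG, an interval of the difference that includes 0, and at 797 and 968 with the antibody, a difference of -0.28. The remaining members differed by at most 0.21 in size, and Hmga2 went in opposite directions in the libraries, at 0.19 and -0.21.

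**Figure D5:**
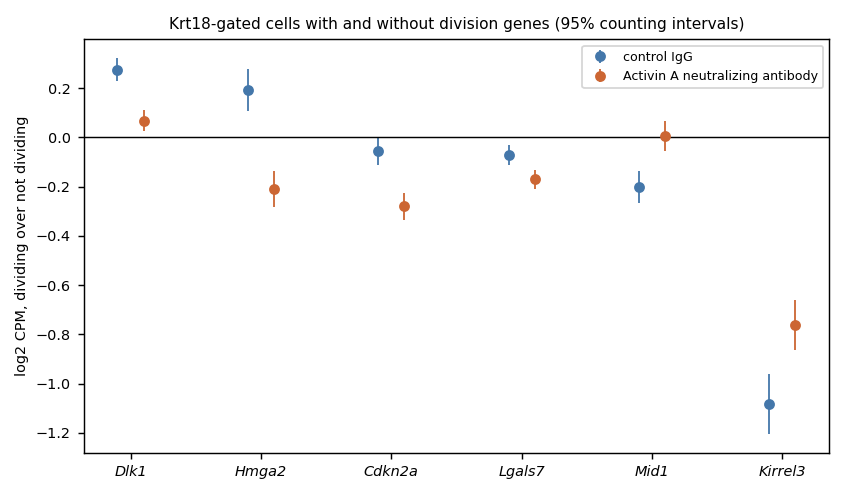
Log2 difference in CPM between dividing and other Krt18-gated cells for each gene in the control IgG (blue) and antibody (orange) libraries, with 95% counting intervals. Kirrel3 lies lowest in both libraries, at -1.08 and -0.76, and 10 cells of each library held 38.4% and 37.6% of its UMIs.

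Related genes were read from lists made with earlier results of these data known, and 0 of their tested genes were past 10-fold in both libraries in Krt18-gated cells, with the fibroblast-like class limited to high Col1 cells. By that comparison, which the choice of the members used, 4 of 6 members and 0.133% of 11276 genes were past it, and against all fibroblast-like cells 0 of 6 members were. The imprinted list for Dlk1 had 7 of 20 genes with enough UMIs, and its median log2 level over the next class was -0.47 and -1.48, against -0.66 and -0.85 over all genes. Meg3 and Rian, which are maternally expressed RNAs of the Dlk1 domain, were at 0.565 and 0.901 CPM and at 0.471 and 1.23 CPM in Krt18-gated cells. High Col1 fibroblast-like cells had 592 and 658 CPM of Meg3 and 171 and 194 of Rian. Mirg, another such RNA, differed far less, at 7.63 and 6.96 CPM in Krt18-gated cells against 11.7 and 19.4 in high Col1 cells. Dlk1 thus was high where Meg3 and Rian were low, and in the high Col1 cells with control IgG the reverse was measured. Mest, another imprinted gene, was at 15.5 and 5.08 CPM, a log2 difference of -1.61 between the libraries, and Peg3 had 0 UMIs with control IgG and 43 with the antibody, at least 12.5-fold higher against a floor of 3 UMIs. Igf2 and Rian were also past 2-fold between the libraries, both higher with the antibody, but at under 2 CPM and with intervals that include 0. Among 8 of 13 Notch pathway genes with enough UMIs, Notch4 alone passed 2-fold between the libraries, lower with the antibody and also under 2 CPM.

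Among 12 tested let-7 targets and HMGA genes 0 passed 2-fold between the libraries, and Hmga1, the closest relative of Hmga2, was at 47.6 and 37.5 CPM in Krt18-gated cells against 19.2 and 12.2 in the next class. Among 20 cell cycle and p53 genes 0 passed 2-fold. Cdkn2b, the neighbour of Cdkn2a that encodes p15Ink4b, was at 66.2 and 50.2 CPM against 18.1 and 11.2 in the next class, and Mtap, another neighbour on chromosome 4, at 238 and 193 against 47.3 and 51.9. The galectin list had 7 tested genes, of which Lgals1 was at 3079 and 2938 CPM in Krt18-gated cells and higher in high Col1 cells, at 6027 and 5779. Mid2, the paralog of Mid1, was at 3.77 and 4.01 CPM, and Kirrel, a paralog of Kirrel3, at 23.5 and 24.0, and 0 of 7 genes of the Mid1 list and 0 of 5 of the Kirrel3 list passed 2-fold between the libraries, as did 0 of 7 galectins.

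The genes whose level followed each member most closely over 6 classes and both libraries (12 points that share library and depth) were given by Pearson's r of log2(CPM + 1), among 14256 genes. For Dlk1 these were Krt18 (0.993), which the gate used, Mtap (0.989) and Etv4 (0.989). For Cdkn2a they were Mtap (0.987), Hspa12b (0.980) and Baiap2l1 (0.979), and for Lgals7 Etv4 (0.994), Grik2 (0.993) and Metap2 (0.991). For Hmga2 they were Igfbp4 (0.989), Mpzl1 (0.988) and Efnb1 (0.987), for Mid1 Btc (0.995), 3110039M20Rik (0.994) and Six4 (0.993), and for Kirrel3 Sh3tc2 (0.986), Nhs (0.985) and Hist1h2bc (0.985). The members themselves correlated with Dlk1 between 0.946 (Kirrel3) and 0.991 (Cdkn2a) over the same points. Since all 6 were chosen for a high level in the cancer-like cells, such values over classes largely follow from that choice. Nothing is read from them.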

How the data were processed

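Droplet barcodes of 2 single-cell 3′ libraries, 1 per group, were analysed. The deposited tables give, as the authors left them, unfiltered UMI counts of each gene in each barcode. The labels name Cell Ranger 7.0.1 and mm10, the file headers Cell Ranger 4, and the chemistry is given differently in the labels and the methods. The 6 genes and all lists were chosen with earlier results of these data known. Named genes were the 6, for each the 3 genes of most similar pattern, and list genes past a fold or closest to a member.

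Barcodes counted as cells had between 1000 and 8500 genes, between 1000 and 100000 UMIs, and a mitochondrial share of no more than 10% (8770 of 1484815 barcodes with control IgG, 6386 of 1316737 with the antibody, with 80208236 and 57416419 UMIs). Doublets were not removed. Classes were set by marker UMIs per 10000, cells past several lineages being left out (253 and 112 cells), and UMIs were summed per class and library as CPM. A gene needed 20 UMIs to be counted, and a class at 0 was set to 3 UMIs. Intervals are 95%, exact Poisson, Clopper-Pearson or conditional binomial. Free RNA held 6.39% and 6.23% of UMIs. Gene positions are from GENCODE on GRCm38, with 99.6% of identifiers matched. Python 3.11.15, numpy 2.4.6, scipy 1.17.1 and matplotlib 3.10.9 were used, and the scripts were tested on simulated data.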

Additional observations from a re-analysis of the deposited data

Results flagged for a closer look

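For each of the 6 genes the log2 difference between the libraries had opposite signs in Krt18-gated and in fibroblast-like cells. In Krt18-gated cells the median over all genes was -0.057, and Dlk1, Cdkn2a, Lgals7 and Mid1 lay close to it. The same median for fibroblast-like cells is not given here, and Dlk1 had the other sign with the Dlk1 and Hmga2 gate. The log2 value of the antibody over control IgG was -0.088 in Krt18-gated and 0.63 in fibroblast-like cells for Dlk1, -0.095 and 0.28 for Cdkn2a, -0.087 and 0.67 for Lgals7, and -0.060 and 0.28 for Mid1. It was 0.20 and -0.34 for Hmga2 and 0.26 and -0.43 for Kirrel3. The directions in fibroblast-like cells did not all hold in its parts: in high Col1 and low Col1 cells the values were 2.71 and 0.088 for Dlk1, 0.55 and 0.51 for Lgals7, 1.18 and -0.11 for Cdkn2a, 0.87 and -0.33 for Mid1, 0.29 and -0.77 for Hmga2, and -0.13 and -0.73 for Kirrel3. Each group is 1 library, so the difference between the classes was not tested.

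Barcodes over the limits of 8500 genes or 100000 UMIs, 48 with control IgG and 69 with the antibody, were in no comparison. Dlk1, Cdkn2a and Lgals7 stood there at between 80.0% and 109% of their level in Krt18-gated cells, and Hmga2, Mid1 and Kirrel3 at between 64.1% and 74.5%. In these barcodes of the antibody library Dlk1 was at 1434 CPM, Hmga2 at 358, Cdkn2a at 905, Lgals7 at 1911 and Kirrel3 at 183. With control IgG they were at 1208, 303, 816, 1800 and 147 CPM. Mid1 went the other way, with 557 CPM with control IgG and 460 with the antibody.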

How the results depend on the processing

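No replicate was left out, since either group holds 1 library. No paired analysis was possible because the design has 1 library in either group. Intervals cover counting error alone, and classes under 50 cells, the Krt8 and Krt18 gate among them, rest on few cells. The leukocyte share of free RNA is lowered by the gates, since cells past a T, B or myeloid gate left the fibroblast-like class.

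The count of members past 2-fold between the libraries was 0 under all 7 alternatives. The count past 10-fold over every other class of 50 or more cells was 1 with control IgG and 0 with the antibody. It became 4 and 4 with class cuts times 2, and 6 and 4 against high Col1 fibroblast-like cells (also with the Krt18 gate). It was 0 with control IgG with cuts times 0.5, without upper limits, and with the Krt18 or the Dlk1 and Hmga2 gate. Against high Col1 cells 0.432% and 0.245% of all genes passed, and with the Krt18 gate as well 0.276% and 0.146%. With the Krt18 gate alone 0.0345% passed with control IgG. For the other settings the share of all genes is not given here, so these counts are not read as a result about the members. The same holds for the 2-fold counts.

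Dlk1 in fibroblast-like cells over the expected level (log2, 3.96 and 5.44) was 5.37 and 7.30 with cuts times 0.5, 1.15 and 3.09 with cuts times 2, 4.65 with control IgG without upper limits, and 2.95 and 3.61 with cells of several lineages kept. It was 4.10 with control IgG for free RNA under 50 UMIs, and 3.60 and 4.93 for barcodes of 20 to 99 UMIs. With haemoglobin genes it was 8.11 with the antibody, and could not be computed with control IgG, where these cells had no haemoglobin UMI. With the 1 leukocyte gene of lowest share it was 4.88 and 7.02, and with that of highest share 1.18 and 3.27. With the other 5 members setting the share it reversed to -0.75 and -0.62, at shares of 177% and 115%, which are over 100% and so cannot be shares of free RNA. Without keratin UMIs it was 0.49 and 4.31, without cells past the mesothelial gate 4.16 and 5.63, without cells that held UMIs of both Hmga2 and Cdkn2a 1.13 and 3.24, and in high Col1 cells -0.23, a reversal, and 3.60. The Krt18 gate, the Col1 split, the single leukocyte genes and the removal of Hmga2 and Cdkn2a cells were chosen after seeing the data.

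Of single values, Kirrel3 with the antibody reversed with cuts times 0.5, to -0.72 over the next class and -0.88 between the libraries, and Dlk1 between the libraries reversed to 0.024 with the Dlk1 and Hmga2 gate. In the planned gate 1 of the 27 antibody cells held 228 of 518 Kirrel3 UMIs. The cause of these changes was not tested.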
